A study of Mus musculus with 12 samples.

Results

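The zonation markers are a set of 9 genes by which hepatocytes at the 2 ends of the liver lobule are told apart, and they were chosen by name from the liver table of 55416 genes. The pericentral markers were Glul, Cyp2e1, Cyp1a2, Oat and Rgn, and the periportal markers were Cyp2f2, Hal, Gls2 and Hsd17b13. All 9 were listed in the table and all 9 passed the filter on low values. RNA-seq was carried out on the liver and the intestine (duodenum) of male C57BL6/J mice, aged 8 weeks when treatment began. For 8 weeks the mice were given a daily subcutaneous injection of corticosterone (CORT, 40 mg/kg), the glucocorticoid that the adrenal glands of rodents release, or of the vehicle (Veh, water with DMSO and Tween-80). Each tissue gave 3 Veh and 3 CORT libraries, numbered as biological replicates, each made from 50 mg of frozen whole tissue, so hepatocytes of all zones and other liver cells were measured together.

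Blood enters the liver lobule at the portal tracts and leaves at the central vein, and hepatocytes along this path divide the work of the organ. Periportal hepatocytes, which receive the blood richest in oxygen, are known for urea synthesis, gluconeogenesis and the breakdown of amino acids such as glutamine and histidine. Pericentral hepatocytes are known for cytochrome P450 enzymes, and those in the ring next to the vein for glutamine synthetase, which captures the ammonia that the urea cycle upstream has missed. Wnt ligands and R-spondin from endothelial cells of the central vein switch on beta-catenin with its TCF partners in nearby hepatocytes, and this maintains the pericentral programme.

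The values are TPM, which express each transcript relative to all others of its library after a correction for length, so that read depth, and with it the error of counting, cannot be worked out from them. The liver libraries summed to between 983327 and 996427 TPM and had between 17897 and 18891 genes above 0. Fkbp5, a classical target of the glucocorticoid receptor, was at 13.1 ± 6.19 TPM (SD, n = 3) in Veh and 248 ± 26.1 TPM (n = 3) in CORT livers, and every liver library sat on the side of its label. The 6 hepatocyte markers (Alb, Apoa1, Ttr, Trf, Ahsg and Serpina1c) summed to between 73205 and 115040 TPM in Veh and between 86915 and 91468 TPM in CORT livers. Of these 6, 0 were called and 1 had an unadjusted p under 0.05 by limma, against 6.92% and 25.9% of all tested genes. Veh2 stood apart from the other Veh livers: of the 11699 genes tested in liver, 68.7% were highest and 11.2% lowest in Veh2 among the 3 Veh libraries, whereas after median-ratio scaling, which divides each library by its median ratio to the geometric mean library, these shares were 30.4% and 40.9%. Of the 7 markers of sinusoidal endothelium, 4 (Stab2, Lyve1, Oit3 and Pecam1) were called higher in CORT, against 4.91% of all tested genes. Their list summed to between 29.9 and 65.0 TPM in Veh and between 112 and 137 TPM in CORT livers. Their part in the results on the zonation markers was not tested. In whole tissue, fewer cells of a type and less RNA per cell cannot be told apart.

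In the values as deposited 4 markers had liver groups that did not overlap, and none of them was called. After median-ratio scaling this held for Cyp2f2 and Hal only. The sequences upstream of the 4 are shown so that the promoters of the pair that was higher (Glul, Cyp2e1) and the pair that was lower (Cyp2f2, Hal) in CORT as deposited can be compared. Each is the 250 bases before the RefSeq start of the gene in build GRCm38.p6, 5′ to 3′ on the plus strand, on which all 4 genes lie. Capitals mark CTTTGA, the core of the TCF motif through which beta-catenin acts, and TATAAA, the TATA box, each searched on both strands, so that a match on the minus strand is shown by its reverse complement. The windows are chr1:153899679-153899928 for Glul, chr7:140763569-140763818 for Cyp2e1, chr7:27119705-27119954 for Cyp2f2 and chr10:93488518-93488767 for Hal, and they do not come from GRCm39, the build that the submitters named.
Glul: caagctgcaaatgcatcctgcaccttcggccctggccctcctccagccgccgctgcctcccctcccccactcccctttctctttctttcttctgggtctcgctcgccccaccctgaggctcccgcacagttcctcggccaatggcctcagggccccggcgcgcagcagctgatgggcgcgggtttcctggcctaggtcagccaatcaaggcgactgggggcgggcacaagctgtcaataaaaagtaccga
Cyp2e1: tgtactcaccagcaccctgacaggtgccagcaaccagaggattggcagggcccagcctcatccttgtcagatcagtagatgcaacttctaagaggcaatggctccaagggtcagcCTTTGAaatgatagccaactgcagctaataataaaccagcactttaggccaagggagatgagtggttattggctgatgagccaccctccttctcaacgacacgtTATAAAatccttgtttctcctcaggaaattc
Cyp2f2: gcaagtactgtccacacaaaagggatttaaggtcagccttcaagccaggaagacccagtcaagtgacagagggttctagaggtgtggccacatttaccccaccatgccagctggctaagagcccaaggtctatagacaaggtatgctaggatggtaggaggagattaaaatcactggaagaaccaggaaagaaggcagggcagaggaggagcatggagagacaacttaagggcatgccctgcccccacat
Hal: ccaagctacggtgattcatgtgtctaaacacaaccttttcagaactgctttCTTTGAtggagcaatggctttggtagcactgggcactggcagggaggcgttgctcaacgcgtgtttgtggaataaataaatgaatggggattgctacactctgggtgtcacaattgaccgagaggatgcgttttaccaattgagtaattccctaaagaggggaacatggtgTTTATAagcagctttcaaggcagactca

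Cyp2e1 held CTTTGA at 135 bases and TATAAA at 31 bases before the start, and Hal held CTTTGA at 199 bases and TATAAA, on the minus strand, at 28 bases before the start. The windows of Glul and Cyp2f2 held neither. Of the 7 markers with a window (Gls2 and Rgn are named only), 4 held CTTTGA (Cyp2e1, Cyp1a2, Hal and Hsd17b13) and 3 held TATAAA (Cyp2e1, Cyp1a2 and Hal), against 13.8% and 12.4% of all 32851 windows of this length. AGAACA, the half-site of the glucocorticoid receptor, was in 0 of 7 and in 16.1% of all windows. The matches were thus spread over both zones and over both directions, and these letters describe the windows only.

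The question put to the liver libraries was whether CORT changed the level of the markers and whether both zones moved alike. In the values as deposited Glul and Cyp2e1 were higher in every CORT liver than in every Veh liver, Cyp2f2 and Hal were lower in every CORT liver, and the other 5 markers overlapped between the groups; after median-ratio scaling Cyp2f2 and Hal were the only 2 whose groups did not overlap. A gene was called where limma gave an adjusted p of 0.05 or less over all 11699 tested genes and a fold change over 1.5, and by this rule 0 of 9 markers were called, against 6.92% of all tested genes (4.91% called higher and 2.01% lower in CORT). At an unadjusted p under 0.05 there were 4 of 9 markers, against 25.9% of all genes. The same 4 markers had groups that did not overlap, which was the case for 32.2% of all genes, 20.6% with CORT higher and 11.6% with CORT lower. With 3 libraries against 3, an exact two-sided permutation test of a single gene cannot go below p = 0.1. The median log2 fold change was -0.11 over the 5 pericentral and -0.45 over the 4 periportal markers, beside 0.08 over all tested genes.

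Glul (ENSMUSG00000026473) encodes glutamine synthetase, which joins ammonia to glutamate and is the marker with the narrowest pericentral territory. Its level was 335, 141 and 388 TPM in Veh1, Veh2 and Veh3, and 549, 701 and 397 TPM in CORT1, CORT2 and CORT3. The groups did not overlap, but CORT3 lay only just above Veh3, and Veh2 was far below the other Veh livers. The mean was 288 ± 130 TPM (SD, n = 3) in Veh and 549 ± 152 TPM (SD, n = 3) in CORT, a log2 fold change of 1.02 (SE 0.40, 95% interval 0.07 to 1.96) with an adjusted p of 0.169 by limma. Without Veh2 the log2 fold change of Glul was 0.57, and over the 6 fits that each left out 1 library it lay between 0.57 and 1.29 with adjusted p between 0.172 and 0.338. After median-ratio scaling the groups overlapped, with 381 TPM in CORT3 below 425 TPM in Veh3, and the log2 fold change was 0.92.

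Cyp2e1 (ENSMUSG00000025479), the P450 enzyme that oxidizes ethanol and paracetamol, had the highest level of the 9 markers in every liver library. It stood at 3499, 2363 and 3662 TPM in the 3 Veh livers and at 6081, 6988 and 4175 TPM in the 3 CORT livers, in the order of their numbers. Every CORT liver was above every Veh liver, and as for Glul, Veh2 was the lowest Veh and CORT3 the lowest CORT library. The mean was 3174 ± 708 TPM (SD, n = 3) in Veh and 5748 ± 1436 TPM (SD, n = 3) in CORT, with a log2 fold change of 0.85 (SE 0.25, 95% interval 0.25 to 1.45) and an adjusted p of 0.0929 by limma. Leaving out 1 library at a time gave log2 fold changes from 0.65 (without Veh2) to 1.06, with adjusted p from 0.0611 to 0.232. After median-ratio scaling Cyp2e1 was at 4010.6 TPM in CORT3 and at 4011.4 TPM in Veh3, so that the groups met.

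The other 3 pericentral markers had lower means in CORT, each with overlap between the groups. Cyp1a2 (ENSMUSG00000032310), the P450 enzyme that clears caffeine and responds to the Ah receptor, was at 545, 266 and 487 TPM in Veh1 to Veh3 and at 280, 212 and 409 TPM in CORT1 to CORT3. Veh2 lay among the CORT livers, and the log2 fold change was -0.51 (SE 0.33, 95% interval -1.30 to 0.28, adjusted p = 0.382 by limma). Without Veh2 it was -0.83, the lowest of the 6 fits that left out 1 library.

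Oat (ENSMUSG00000030934), ornithine aminotransferase, which turns ornithine towards glutamate and shares the pericentral ring with Glul, was at 403, 221 and 352 TPM in Veh1 to Veh3 and at 246, 333 and 303 TPM in CORT1 to CORT3. Every CORT liver lay inside the range of the Veh livers, and the log2 fold change was -0.11 (SE 0.24, 95% interval -0.69 to 0.47, adjusted p = 0.806 by limma). This sign turned to 0.065 without Veh1 and to 0.011 without CORT1.

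Rgn (ENSMUSG00000023070), regucalcin, the gluconolactonase of ascorbate synthesis, varied least of the pericentral markers. It was at 558, 460 and 513 TPM in Veh1 to Veh3 and at 473, 393 and 433 TPM in CORT1 to CORT3. Only CORT1 reached into the Veh range, above Veh2, and the log2 fold change was -0.24 (SE 0.14, 95% interval -0.56 to 0.09, adjusted p = 0.326 by limma).

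Among the periportal markers, Cyp2f2 (ENSMUSG00000052974), a P450 enzyme known for the activation of naphthalene, was the most abundant. It stood at 876, 864 and 947 TPM in Veh1 to Veh3 and at 691, 518 and 739 TPM in CORT1 to CORT3. The Veh livers lay close together, all above the CORT livers, of which CORT2 was the lowest. The mean was 896 ± 44.8 TPM (SD, n = 3) in Veh and 649 ± 116 TPM (SD, n = 3) in CORT, a log2 fold change of -0.48 (SE 0.16, 95% interval -0.87 to -0.09) with an adjusted p of 0.126 by limma. Leaving out 1 library at a time gave -0.58 to -0.32.

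Hal (ENSMUSG00000020017), histidine ammonia-lyase, the first step of histidine breakdown, was at 98.5, 167 and 114 TPM in Veh1 to Veh3 and at 69.2, 82.0 and 88.0 TPM in CORT1 to CORT3. All CORT livers were below all Veh livers, and Veh2 was well above the other Veh livers. The mean was 126 ± 35.7 TPM (SD, n = 3) in Veh and 79.7 ± 9.59 TPM (SD, n = 3) in CORT, a log2 fold change of -0.63 (SE 0.21, 95% interval -1.13 to -0.13) with an adjusted p of 0.122 by limma. Under median-ratio scaling Hal was called, with a log2 fold change of -0.72 and an adjusted p of 0.0305 by limma, where 4.02% of all tested genes were called lower and 4.66% higher in CORT. Without Veh2, on the values as deposited, it was -0.41.

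Gls2 (ENSMUSG00000044005), the liver glutaminase, which releases ammonia from glutamine at the portal end and so runs opposite to Glul, was at 165, 383 and 213 TPM in Veh1 to Veh3 and at 168, 131 and 254 TPM in CORT1 to CORT3. Veh2 was the highest of all 6 livers and the remaining libraries were interleaved. The log2 fold change was -0.42 (SE 0.36, 95% interval -1.27 to 0.42, adjusted p = 0.489 by limma) and -0.08 without Veh2.

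Hsd17b13 (ENSMUSG00000034528), a dehydrogenase on the surface of lipid droplets, was at 247, 477 and 340 TPM in Veh1 to Veh3 and at 307, 309 and 245 TPM in CORT1 to CORT3. Here too Veh2 was the highest library, and the groups overlapped. The log2 fold change was -0.26 (SE 0.25, 95% interval -0.84 to 0.32, adjusted p = 0.540 by limma) and -0.02 without Veh2.

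**Figure D1:**
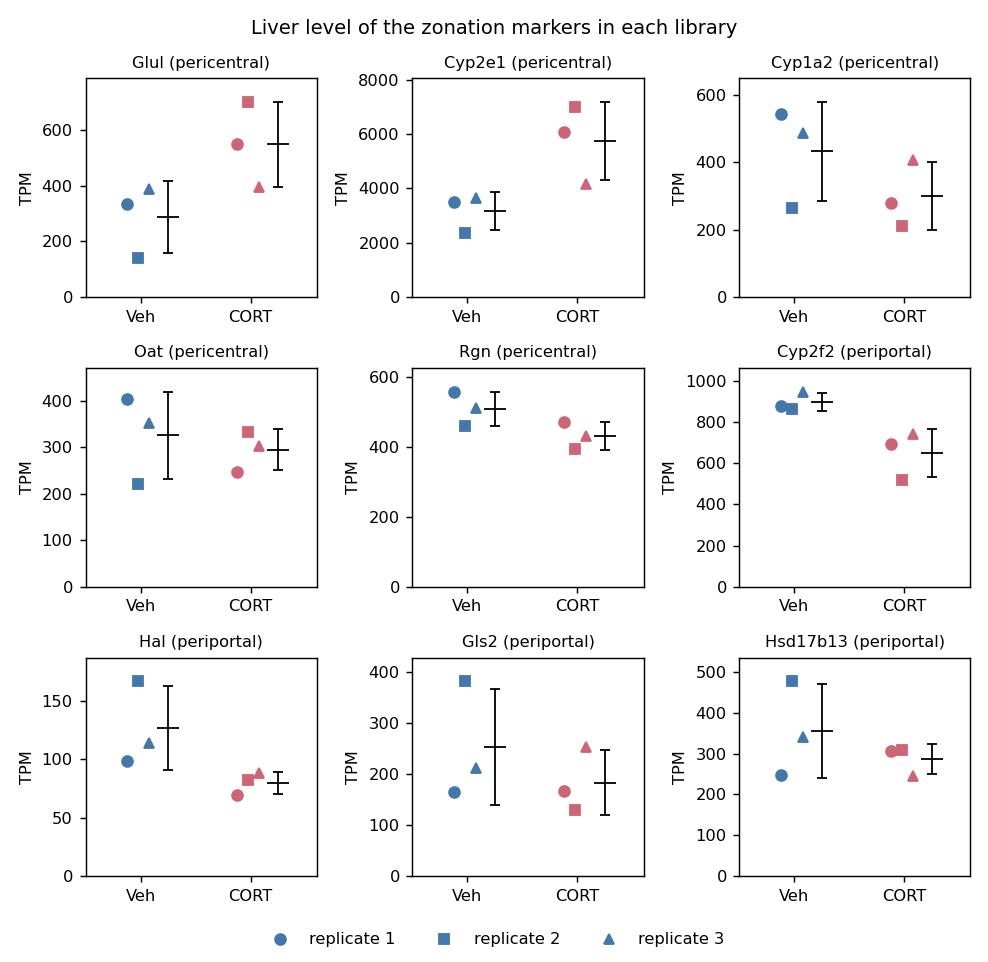
Level of the 9 zonation markers in liver, in TPM on a linear axis from 0, with 1 point per library (Veh in blue, CORT in red, the symbol giving the replicate number) and the mean ± SD of each group (n = 3) beside it. Veh2 (square) is the lowest Veh library for all 5 pericentral markers and the highest for Hal, Gls2 and Hsd17b13, and the groups are separate for Glul, Cyp2e1, Cyp2f2 and Hal.

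**Figure D2:**
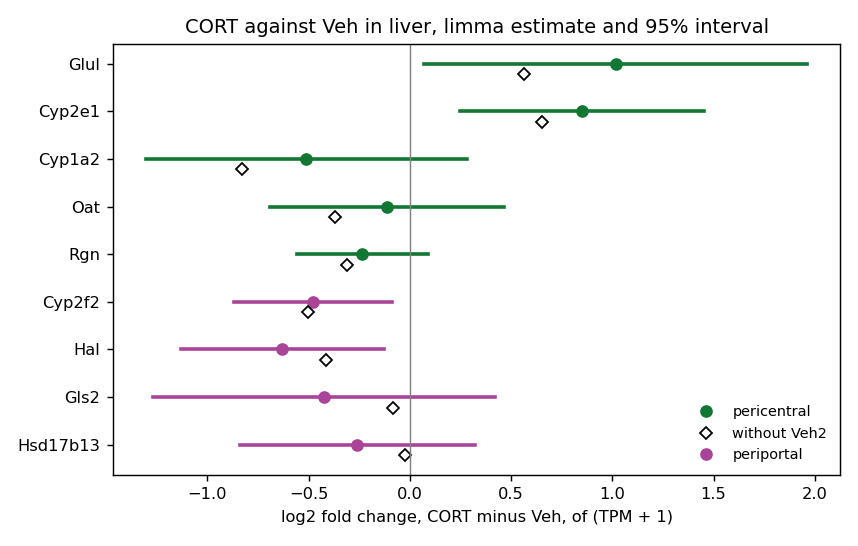
Log2 fold change (CORT minus Veh) of TPM + 1 for each marker in liver, as the limma estimate (filled point) with its 95% interval, pericentral in green and periportal in purple, and the estimate without Veh2 (open diamond). The intervals of Glul, Cyp2e1, Cyp2f2 and Hal leave out 0 before adjustment, and without Veh2 Glul moves from 1.02 to 0.57 and Gls2 from -0.42 to -0.08.

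Since TPM is corrected for length, levels could be ordered between the markers within a tissue. In Veh livers the means, from high to low, followed the order Cyp2e1, Cyp2f2, Rgn, Cyp1a2, Hsd17b13, Oat, Glul, Gls2 and Hal. Cyp2e1 was above Cyp2f2, and Cyp2f2 above Rgn, in each of the Veh livers with no overlap of their ranges, whereas from Rgn down to Hal every marker overlapped with its neighbour in this order. In CORT livers Glul moved up to the third place by mean, with a range of 397 to 701 TPM that overlapped those of Cyp2f2 (518 to 739 TPM) and Rgn (393 to 473 TPM). Cyp2e1 remained first and Hal last, each without overlap with its neighbour.

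Within the Veh group, the 5 pericentral markers set the same library, Veh2, below the others. Veh2 was the lowest Veh library for 5 of 5 pericentral markers, against 11.2% of all tested genes, and it was the highest for 3 of 4 periportal markers, which was close to the 68.7% of all genes. Cyp2f2 was the exception, lowest in Veh2. After median-ratio scaling, a check added after seeing the data, the markers kept these counts, 5 of 5 and 3 of 4, where 40.9% of all genes were lowest and 30.4% highest in Veh2.

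The ratio of Glul to Gls2, the enzymes that make and split glutamine, put the size of this spread in 1 value per library, and no scaling of a whole library alters it. It was 2.03, 0.368 and 1.82 in Veh1, Veh2 and Veh3 and 3.27, 5.36 and 1.56 in CORT1, CORT2 and CORT3. Veh2 was far below the other 5 libraries, and CORT3 fell among the Veh livers. The ratio of Cyp2e1 to Cyp2f2 was 3.99, 2.74 and 3.87 in the Veh livers and 8.80, 13.5 and 5.65 in the CORT livers, in the same order. This ratio did not overlap between the groups, with Veh2 the lowest and CORT2 the highest of the 6. Since Cyp2e1 was higher and Cyp2f2 lower in every CORT liver, their ratio had to separate the groups, and this is no separate result.

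Glul varied more between like-treated livers than most genes at 100 TPM or above. Its highest Veh value was 2.76 times its lowest and its highest CORT value 1.77 times its lowest, while among the 925 genes that averaged 100 TPM or more the median was 1.28 in Veh and 1.25 in CORT. The spread of Glul exceeded that of 94.9% of these genes in Veh and 84.8% in CORT. For Gls2 the same measure was 2.32 in Veh and 1.94 in CORT, and for Rgn it was 1.21 and 1.20. Summed markers of cell types also differed between the Veh livers. Of the 9 lists, Veh2 had as deposited the highest sum of the group for hepatocytes, sinusoidal endothelium, neutrophils, and the enterocyte and acinar lists. Its sum was also highest for stellate cells and fibroblasts (349 TPM, against 126 and 242 TPM). For B and T lymphocytes Veh2 had 8.0 TPM, against 2.12 and 3.04 TPM. Veh3 was highest for Kupffer cells and macrophages (145 TPM) and cholangiocytes (56.1 TPM). Of all tested genes 68.7% were highest in Veh2, and 30.4% after median-ratio scaling. The sums were not scaled. In Veh2 the enterocyte sum of 49.95 TPM held 49.78 TPM of Fabp2, and 6 of 7 acinar genes were at 0 in all livers. The part of these lists in the spread of the zonation markers was not tested.

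**Figure D3:**
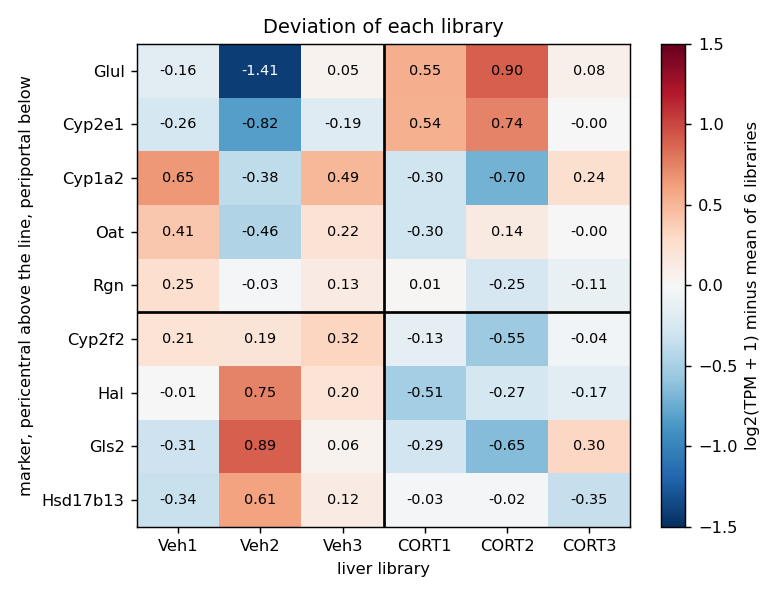
Deviation of each liver library from the mean of all 6 libraries, in log2(TPM + 1), for the pericentral markers (above the horizontal line) and the periportal markers (below it), with Veh left and CORT right of the vertical line, red above and blue below the mean. The Veh2 column is the lowest of the Veh columns for all 5 pericentral markers, and CORT3 is the lowest CORT column for Glul and Cyp2e1 but the highest for Cyp1a2.

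In CORT livers the pericentral markers did not share an order. CORT3 was the lowest for Glul and Cyp2e1, CORT2 for Cyp1a2 and Rgn, and CORT1 for Oat. Among the periportal markers CORT3 was the highest for Cyp2f2, Hal and Gls2 and the lowest for Hsd17b13.

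Further genes with a known zone were looked at beside the markers. Of 22 further pericentral genes, Veh2 was the lowest Veh library in 17 (18 after median-ratio scaling), and CORT3 was the lowest CORT library in 15, or 68.2%, against 36.6% of all genes. Of 22 tested further periportal genes, Veh2 was the highest in 14 (63.6%, near the share of all genes) and after scaling in 5, with 7 lowest in Veh2. The low pericentral values of Veh2 were thus seen in both lists of pericentral genes, whereas the high periportal values were not seen in the longer periportal list after scaling.

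Between CORT and Veh, 2 of 22 further pericentral genes were called, both higher, which at 9.09% was near the 6.92% of all tested genes, with a median log2 fold change of 0.09. Cyp3a11, a steroid-hydroxylating P450 enzyme of a multigene family, among whose members reads may be shared, was at 648, 883 and 794 TPM in Veh and 2874, 2033 and 2111 TPM in CORT livers (log2 fold change 1.59, adjusted p = 0.00693 by limma). Cyp27a1, a sterol hydroxylase of bile acid synthesis, was at 240, 220 and 284 TPM in Veh and 514, 419 and 472 TPM in CORT livers (0.92 on the log2 scale, adjusted p = 0.0182 by limma). Both had groups far apart, unlike Glul, and in neither was Veh2 set off from the other Veh livers to the degree seen in Glul.

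Of the 22 tested further periportal genes 6 (27.3%, against 6.92% of all tested genes) were called, 3 in each direction, and the median log2 fold change was 0.40. Higher were Gldc of the glycine cleavage system (1.01, adjusted p = 0.0113 by limma), the lipoprotein gene Apoa4 (3.94, adjusted p = 0.0239) and the lysophospholipid transporter Mfsd2a (4.02, adjusted p = 0.0286). Lower were Igfbp2, which binds insulin-like growth factors (-2.20, adjusted p = 0.0148 by limma), the steroid dehydrogenase Hsd17b6 (-1.69, adjusted p = 0.0178) and the adhesion molecule Cdh1 (-2.13, adjusted p = 0.0244). Mfsd2a and Cdh1 were beyond the 4 genes per list that the rule for names allowed and were named after their values were seen. The called periportal genes thus moved both ways, whereas the 4 periportal markers, none of them called, all had negative log2 fold changes between -0.63 and -0.26.

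The Wnt pathway, which maintains the pericentral zone, was read from its ligands to its targets. Of the list of Wnt ligands and R-spondin, 3 genes were tested, the ligand Wnt2, the R-spondin Rspo3 and Wls, the carrier that secretes Wnt proteins, and 0 of 3 were called. The ligand Wnt9b and Rspo1 were under the filter. Wnt9b was at 0.07, 0 and 0.11 TPM in Veh and 0.45, 0.54 and 0.45 TPM in CORT livers. With no filter its log2 fold change was 0.48 (adjusted p = 0.0319 by limma), under the fold limit. Wnt2 too, at 1.22 TPM or less, was higher in every CORT liver, while Rspo3, Wls and Rspo1 overlapped. Of all tested genes 20.6% had groups that did not overlap with CORT higher. The same was seen in 7 of 7 markers of sinusoidal endothelium, whose part in the values of the ligands was not tested. Rspo3, the most abundant over the 6 livers, was at 0.97 ± 0.46 TPM in Veh and 1.61 ± 0.24 TPM (SD, n = 3 each) in CORT livers, with a log2 fold change of 0.43 and an adjusted p of 0.276 by limma. Of 10 receptors and co-receptors 0 were called, and the most abundant, the co-receptor Lrp5, had a log2 fold change of 0.47 and an adjusted p of 0.0551 by limma. At an unadjusted p under 0.05 there were 0 of these 3 genes and 4 of 10 receptors, against 25.9% of all tested genes. Among 6 inhibitors and members of the destruction complex, only the kinase Gsk3b was called, and it was higher (0.88, adjusted p = 0.0262 by limma). Of all tested genes 4.91% were called higher.

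Among 7 factors that act with beta-catenin in the nucleus or shape zonation, 3 were called, against 6.92% of all tested genes (4.91% higher and 2.01% lower). The co-activator Bcl9l (0.88, adjusted p = 0.0203 by limma) and Hnf4a, a master regulator of hepatocyte genes (0.86, adjusted p = 0.0211), were higher, and the TCF family member Tcf7 was lower (-0.86, adjusted p = 0.0481). Of 9 tested beta-catenin targets 0 were called higher and 2 lower, Tcf7 and the Wnt inhibitor Notum, and the median log2 fold change of the 9 was -0.46. Tcf7 counts in both lists, and it was called in 0 of 6 fits that left out 1 library. Notum was at 21.2, 29.1 and 24.5 TPM in Veh and 8.68, 11.8 and 7.18 TPM in CORT livers (-1.36 on the log2 scale, adjusted p = 0.0136 by limma). The log2 fold change was positive for 3 of these 9 targets, Axin2 (0.53), Tbx3 (0.47) and Znrf3 (0.02), which are named here after their values were seen and were not called. Glul, itself a known beta-catenin target, had a positive sign too and was not called.

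The pathways in which single markers work gave few calls. In glutamine, glutamate and ammonia metabolism around Glul, Gls2 and Oat, 0 of 19 tested genes were called. At an unadjusted p under 0.05 by limma there were 6, against 25.9% of all tested genes. The most abundant, the urea cycle enzyme Ass1, was at 1715, 2970 and 2553 TPM in Veh and 2544, 2507 and 4694 TPM in CORT livers (log2 fold change 0.40, adjusted p = 0.453 by limma). In the histidine pathway after Hal, 1 of 3 genes was called, against 6.92% of all tested genes. This gene, Amdhd1, the imidazolonepropionase, was at 80.9, 122 and 104 TPM in Veh and 46.1, 46.7 and 41.6 TPM in CORT livers, and fell by 1.16 on the log2 scale (adjusted p = 0.0129 by limma). The other 2 genes of the list, Uroc1 (0.02) and Ftcd (-0.27), named after their values were seen, were not called. In ascorbate synthesis around Rgn, 0 of 4 genes were called and 0 had an unadjusted p under 0.05 by limma, and the most abundant was the reductase Akr1a1 (0.07).

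Of 7 tested genes of the Ah receptor and of partners of the P450 enzymes, 1 was called, against 6.92% of all tested genes. Por, the reductase that feeds electrons to Cyp2e1, Cyp1a2 and Cyp2f2, was at 127, 221 and 196 TPM in Veh and 599, 561 and 628 TPM in CORT livers (1.75 on the log2 scale, adjusted p = 0.00702 by limma). Among 6 tested relatives of the markers 1 was called, beside the same 6.92% of all tested genes. This was Cyp2b10, a P450 enzyme known as a target of the receptor CAR and a member of a multigene family. It was at 1.56, 0.60 and 6.51 TPM in Veh and 1052, 778 and 1141 TPM in CORT livers (8.29 on the log2 scale, adjusted p = 0.00143 by limma). The P450 genes of these lists thus spanned from markers that overlapped between groups to genes with no Veh liver near any CORT liver.

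Of the 106 tested genes in these lists 16 were called, beside 6.92% of all tested genes (4.91% higher and 2.01% lower). Leaving out 1 library at a time, Cyp3a11, Por and Cyp2b10 were called in 6 of 6 fits and Tcf7 in 0 of 6. The calls of Gldc, Notum and Amdhd1 were lost without Veh3 and without CORT1, those of Bcl9l and Hnf4a without Veh1, Veh3 or CORT1, that of Cyp27a1 without Veh1 or CORT1, and that of Igfbp2 without Veh1 or Veh3. Hsd17b6 was lost without Veh1 or CORT2, Cdh1 without Veh1, CORT1 or CORT2, and Mfsd2a without Veh2, CORT1 or CORT2. Apoa4 remained called only without Veh2 or CORT3, and Gsk3b only without Veh2.

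**Figure D4:**
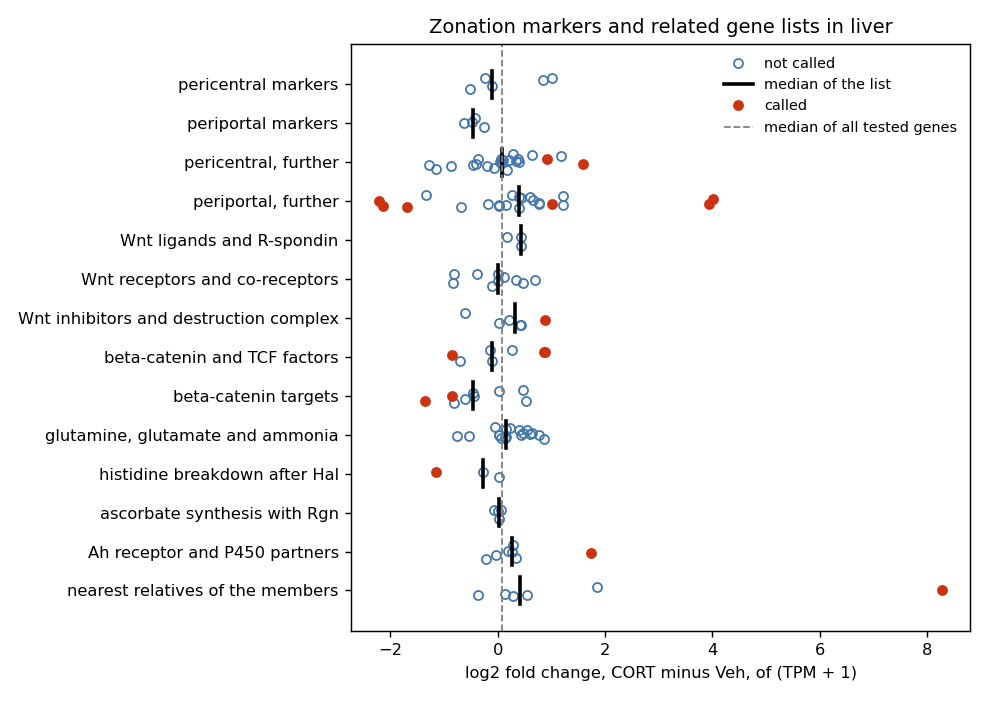
Log2 fold change (CORT minus Veh) of TPM + 1 in liver for each tested gene of the markers and of the related lists, with called genes in red, others open, the median of each list as a black bar and the median of all tested genes (0.08) as a dashed line. The 9 markers lie between -0.63 and 1.02 with none called, while Cyp2b10 in the last row lies at 8.29.

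The 3 tested genes whose profile over the 6 liver libraries was nearest to that of Glul were S100a10, G6pc and Gm49668. Likeness was the Euclidean distance between log2(TPM + 1) profiles, each centred on its mean, for which the median over all tested genes was 1.92. S100a10, an annexin partner, at a distance of 0.493, was at 104, 46.0 and 102 TPM in Veh and 208, 244 and 103 TPM in CORT livers. G6pc, the glucose-6-phosphatase of gluconeogenesis and one of the further periportal genes, at 0.527, was at 80.3, 31.6 and 121 TPM in Veh and 138, 138 and 81.3 TPM in CORT livers. Gm49668 lay at 0.635, and Cyp2e1 was the fifth nearest at 0.664. In these 4 genes Veh2 was the lowest of all 6 libraries and CORT3 the lowest CORT library, an order shared with Glul that their choice by likeness over the same libraries favoured and that is no separate result.

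In the duodenal libraries, 6 enterocyte markers summed to between 6813 and 7808 TPM in Veh and between 8500 and 9901 TPM in CORT. The 6 hepatocyte markers summed to between 8203 and 12170 TPM in Veh and between 15613 and 21515 TPM in CORT duodena. Of these lists 0 of 6 and 0 of 4 tested genes were called, against 2.15% of all tested genes. Glul and Oat were the markers with a clear level there, next to Hsd17b13, and the P450 markers were low. Glul was at 20.4, 23.1 and 29.5 TPM in Veh1 to Veh3 and at 72.2, 51.4 and 56.4 TPM in CORT1 to CORT3. All CORT libraries were well above all Veh libraries. The mean was 24.3 ± 4.63 TPM (SD, n = 3) in Veh and 60.0 ± 10.9 TPM (SD, n = 3) in CORT, a log2 fold change of 1.27 (SE 0.19, 95% interval 0.83 to 1.71) with an adjusted p of 0.0272 by limma. Glul was thus the 1 marker called among the 7 tested in the duodenum, where 2.15% of 13607 genes were called (1.23% higher in CORT) and 26.4% had groups that did not overlap (12.2% with CORT higher). Without any 1 of Veh1, Veh2, Veh3, CORT1, CORT2 or CORT3 the call was lost, with log2 fold changes of 1.13 to 1.41 and adjusted p of 0.0544 to 0.0918 by limma, and it was also lost with no filter on low values (adjusted p = 0.0742). The 7 pancreatic acinar genes looked at summed to 54.0, 20959 and 18161 TPM in Veh1 to Veh3 and to at most 0.99 TPM in the CORT duodena. The part of the acinar, enterocyte and hepatocyte lists in the Glul result was not tested.

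Oat was at 423, 244 and 250 TPM in the Veh and 302, 278 and 382 TPM in the CORT duodena, overlapping, with a log2 fold change of 0.10 (adjusted p = 0.845 by limma). Hsd17b13 lay between 34.6 and 45.2 TPM in Veh and between 40.1 and 60.3 TPM in CORT. Cyp2e1 was between 1.20 and 2.5 TPM in Veh and between 1.77 and 10.9 TPM in CORT, with the high end in CORT3 alone. Rgn (1.91 to 5.80 TPM), Gls2 (0.71 to 2.67 TPM) and Cyp1a2 (1.02 to 1.79 TPM) were low in all 6 libraries, and Cyp2f2 (up to 0.49 TPM) and Hal (up to 0.16 TPM) were under the filter and not tested.

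Whether the response to CORT differed between the tissues was tested in 1 limma fit over both. The fit took all libraries as independent, and the sources used here do not state whether both tissues came from the same mice. It also used a common variance for both tissues, although the SE of Glul was 0.40 in liver and 0.19 in duodenum when each was fitted alone. The difference of the log2 fold changes, liver minus duodenum, was called for 0 of 9 markers, against 3.6% of 14806 genes, and 2 markers, Cyp2f2 and Hal, had an unadjusted p under 0.05. For Glul it was -0.25 (SE 0.48, adjusted p = 0.829 by limma), so that the liver value of 1.02 and the duodenal value of 1.27 were not told apart. For Cyp2f2, which was at 0.49 TPM or less in every duodenum, it was -0.68 (SE 0.20, adjusted p = 0.0983 by limma). For Hal, at 0.16 TPM or less in every duodenum, it was -0.65. With 1 added to TPM, neither gene could move much in the duodenum. Both differences thus mostly repeat the change in liver and are no separate result.

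**Figure D5:**
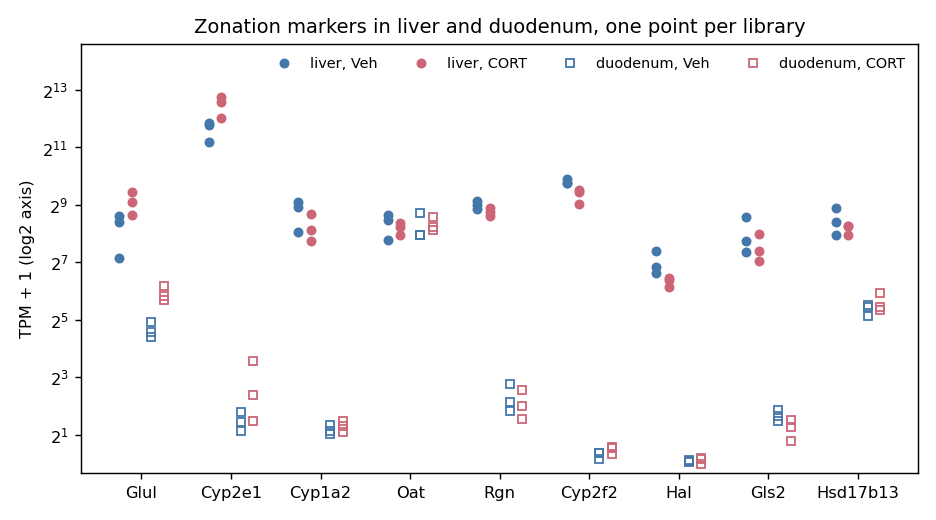
TPM + 1 of the 9 markers on a log2 axis, with 1 point per library, liver as filled circles and duodenum as open squares, Veh in blue and CORT in red. The ranges of Oat in the tissues overlap, the Glul points of the duodenum (20.4 to 72.2 TPM) separate by treatment, and Cyp2f2 and Hal lie near 0 TPM in the duodenum.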

How the data were processed

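Total RNA of liver and duodenum was sequenced by the authors as paired-end libraries (2 × 150 bp), trimmed with SeqPrep and Sickle, aligned with HISAT2, assembled with StringTie and quantified with RSEM. The submitters' processing notes name the build GRCm39, and the annotation release is not given in the sources used here. The deposited tables, 1 for each tissue, give TPM by gene for every library on its own, and depth cannot be read from them. Sample groups and replicate numbers were taken from the labels.

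The deposited TPM were put on a log2 scale after adding 1. Genes that averaged under 1 TPM in both groups were left out, and each tissue was fitted with limma 3.58.1 in R 4.3.3 (eBayes with a trend, treatment as the only term), with Benjamini-Hochberg adjustment over all tested genes. All adjusted p-values and intervals are limma's. Called genes had an adjusted p of at most 0.05 and a fold change over 1.5, strictly. The authors called DEGs with DESeq2, which needs read counts. The added 1 shrinks the fold change of genes with little expression. TPM is relative: a change in a few abundant genes moves all others. The treatment by tissue fit held both tissues (genes averaging 1 TPM or more in any group). The fits were tested on simulated data. Labels call the replicates biological. The p-values weigh the difference between groups against the spread between replicates, which limma moderates with all tested genes.

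The markers and gene lists were chosen with earlier results of these data known. Besides the 9 markers, the genes named were those called in each list (at most 4 by adjusted p, or the most abundant where none was called), the 3 nearest to Glul and Fkbp5. Mfsd2a, Cdh1, Wnt2, Wnt9b, Rspo1, Wls, Axin2, Tbx3, Znrf3, Uroc1 and Ftcd were named after their values were seen, and other names belong to the lists of cell markers. Of 23 further periportal genes, G6pc1 was not matched in the table. Alternatives were a pseudocount of 0.1, no filter, median-ratio scaling, the replicate number as a block, no limit on fold change and leaving out each library; ranks of libraries after scaling were added after seeing the data. The lists of other cells in liver had 0 of 7 (Kupffer cell and macrophage), 0 of 7 (stellate cell and fibroblast), 0 of 4 (cholangiocyte), 0 of 2 (B and T lymphocyte), 0 of 3 (neutrophil), 0 of 1 (enterocyte) and 0 of 1 (pancreatic acinar) tested genes called by limma, and 0, 1, 1, 2, 0, 0 and 1 of them, in this order, had an unadjusted p under 0.05. Of all tested genes in liver 6.92% were called and 25.9% had such a p. The B and T lymphocyte list summed to between 2.12 and 8.0 TPM in Veh and between 0.31 and 0.83 TPM in CORT livers. Motifs were searched in RefSeq promoter windows of GRCm38.p6, with 7 of 9 markers matched. Figures were drawn with matplotlib 3.10.9.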

Additional observations from a re-analysis of the deposited data

How the results depend on the processing

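Of the 9 markers, 0 were called in liver as deposited, and 1 was called after median-ratio scaling (Hal, log2 fold change -0.72), a scaling that moved the median log2 fold change of all genes from 0.08 to -0.0028. Oat, between -0.37 and 0.065 when 1 library was left out, turned sign without Veh1 (0.065) and without CORT1 (0.011), and the other 8 markers kept their sign in all 6 fits that left out 1 liver library. Against 810 genes called in liver, 283 were called with no filter on low values, 307 with the replicate number as a block, and between 247 (without CORT1) and 831 (without Veh2) when 1 library was left out, with 315 without Veh1, 303 without Veh3, 435 without CORT2 and 522 without CORT3. Against 16 called list genes, 7 were called with no filter, 9 with the block (all among the 16), and between 5 and 17 with 1 library left out.

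In the duodenum, where 1 marker (Glul) was called, 0 were called with no filter (adjusted p = 0.0742 by limma), 0 with the replicate block (0.0918), and between 0 and 0 with 1 library left out. The treatment by tissue difference, called for 0 markers, was called for 1 after median-ratio scaling (Hal). Hal was at 0.16 TPM or less in every duodenum, so this call mostly repeats its fall in liver and is no separate result. Deviations of same-numbered Veh and CORT libraries correlated across genes at 0.04, -0.0084 and -0.12 in liver. In the duodenum they correlated at 0.05, 0.07 and -0.0039. In neither tissue did every library correlate best with its own number, although Veh1 and Veh2 of the duodenum did. These values showed no clear pairing by number, and so few libraries cannot exclude one. With 3 libraries per group and Glul spread as in these livers, the interval of its fold change was wide, and depth cannot be read from TPM.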
